A study of Mus musculus with 18 samples.

Results

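Cwc22 is 1 of 21631 protein-coding genes on the autosomes and the X chromosome, and is described here with its flanks on mouse chromosome 2, from 77.8 to 78.1 Mb (mm10). All called intervals of 8 peak lists that touch this window are its members, 423 of 57094 intervals in all. The window was chosen by the bases covered, the number and width of the intervals and their fold in these lists, which were already known. These measures are therefore given as a description, without a test. The lists come from chromatin immunoprecipitation with sequencing on primary immature neurons, cultured from mouse embryos of embryonic day 14 and kept for 2 days in vitro. The 4 2-DG lists are from neurons given 10 mM 2-deoxyglucose, a glucose analogue that blocks glycolysis, for 6 h. The 4 control lists are from untreated neurons. The antibody label names ATF4, a transcription factor that cells make under nutrient and protein-folding stress, for 2-DG samples and reads None for control samples, while the design of the series names the ATF4 antibody for both. Mouse strain, sex and the number of embryos behind a culture are not given in the sources used here, and a peak list holds no expression that could check the cell type. The design states 3 independent replicates for 4 lists per group, so the spread between lists may be technical.

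The sample titles are numbered, and 2-DG replicates 1 to 4 carry titles 2, 6, 10 and 14, against titles 1, 5, 9 and 13 for control replicates 1 to 4. A 2-DG list and the control list with the title number before it are called a pair here, pair 1 to pair 4. The labels do not say what lists with consecutive numbers share. Titles 18 and 17, whose title and description name different treatments, are shown apart.

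CWC22 is a protein of the spliceosome, the complex that removes introns from messenger RNA precursors. It brings the helicase EIF4A3 to the splicing complex, where the exon junction complex is then laid down on the spliced RNA, and it is needed for splicing as such. The segment of chromosome 2 that holds the gene is also known for differing in copy number between mice of different strains. Copy number was not measured, and whether the segment was also high in input DNA was not tested, since input samples were not analysed here.

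Cwc22 lies at 77881159 to 77946356 on the minus strand, so that its start is the higher coordinate and upstream means higher positions. The promoter of the RefSeq table (GRCm38.p6, chr2:77946307-77946606, minus strand, 250 bases before to 50 after the start) is shown because intervals lay over it in some lists and not in others. Capitals mark the only match to TGACG, the short form of the cyclic AMP response element, which lies on the opposite strand from position 168 counted from the 5′ end.
Cwc22 promoter: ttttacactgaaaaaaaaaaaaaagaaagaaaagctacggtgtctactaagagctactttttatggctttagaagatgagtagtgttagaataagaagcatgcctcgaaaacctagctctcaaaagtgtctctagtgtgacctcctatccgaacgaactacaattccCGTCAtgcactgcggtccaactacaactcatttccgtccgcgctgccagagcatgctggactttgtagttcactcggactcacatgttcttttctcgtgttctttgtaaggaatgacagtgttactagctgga
The composite element TGATGNAA and the full element TGACGTCA, both bound by factors of the ATF4 family, had no match on either strand in these 300 bases. Over all 32851 promoters of the table, 3.97% hold the composite element, 1.79% the full element and 20.8% the short form, which the full element contains. The promoter has a GC content of 42%, against a median of 52.7% over all promoters. All 300 bases lay in an interval in both lists of pair 1 and in both lists of pair 2, and 0 bases did in the 4 lists of pairs 3 and 4 or in titles 18 and 17.

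The lists differ in length and in the height at which they end. The folds in column 7 lie on an even grid in every list, so that 1 background value per list explains them (the check is given with the processing). That background is the mean number of fragments over a base of the genome, and a summit's pileup is the number of fragments over it. The background was 2.23, 1.81, 1.04 and 2.01 in 2-DG replicates 1 to 4, against 1.75, 1.73, 1.14 and 1.83 in control replicates 1 to 4, and 1.88 and 2.09 in titles 18 and 17. Pair 3 thus had the lowest background of the lists. The lowest summit of a list stood at 4.48 to 6.70 times background in the 2-DG lists and at 4.92 to 6.15 times in the control lists. Where no interval was called, the pileup therefore stayed below about that height, and this is not an absence of fragments.

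The cover of the window by intervals was close within each pair, alike in pairs 1 and 2, and far lower in pair 4 and lowest in pair 3. It came to 122084, 123061, 3426 and 45763 bases in 2-DG replicates 1 to 4, against 119783, 119569, 3999 and 48387 bases in control replicates 1 to 4. Pairs 1 and 2 were covered over about 40% of the window, namely 40.7% and 41.0% in the 2-DG lists and 39.9% and 39.9% in the control lists. Pair 4 was in between, with 15.3% in the 2-DG list and 16.1% in the control list, and pair 3 was lowest, with 1.14% and 1.33%. The 2 lists with conflicting labels, at 2628 bases in title 18 and 2929 bases in title 17, were lower still.

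The treatments overlapped in full. The 2-DG lists averaged 73583.5 ± 59151 bases, against 72934.5 ± 56933 bases in the control lists (SD, n = 4 each), a difference of 649 bases. Within pairs, the 2-DG list differed from its control list by 2301, 3492, -573 and -2624 bases, with an SD of 2770 over the 4 pairs. Each of these differences is small beside the gap between the lists of pairs 1 and 2 and those of pair 4. In pairs 1 and 2 both 2-DG lists lay above both control lists, and in pairs 3 and 4 the 2-DG list lay below its control list.

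The number of intervals did not follow the cover. It was 28, 28, 18 and 138 in 2-DG replicates 1 to 4, against 29, 39, 20 and 123 in control replicates 1 to 4. In pair 4 the same span was broken into many short pieces, with a median width of 263 bp in the 2-DG list and 310 bp in the control list. In pairs 1 and 2 the median width was 3860.5 and 3215 bp in the 2-DG lists and 1810 and 2239 bp in the control lists. In pair 3 it was 154.5 bp in the 2-DG list and 176.5 bp in the control list, close to the median of all intervals of those lists, 135 and 134 bp. The widest interval reached 16432 bp in a 2-DG list and 26413 bp in a control list, both in pair 1.

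**Figure D1:**
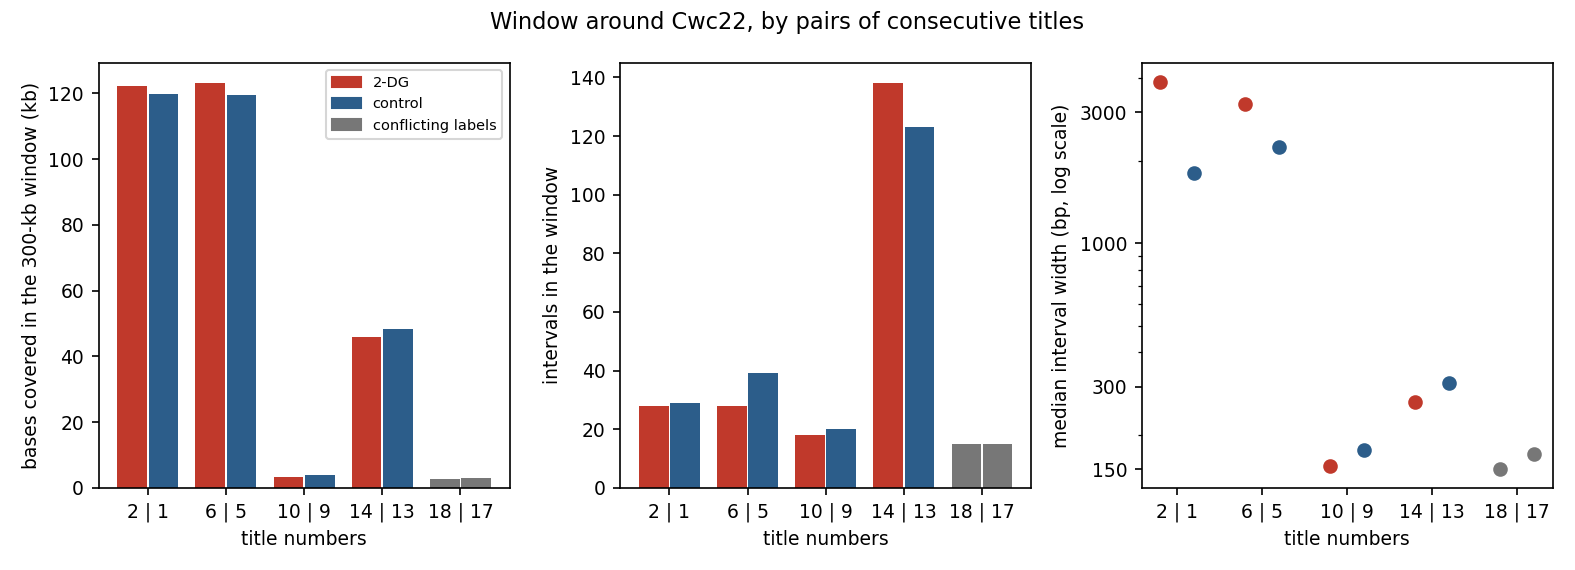
Bases covered in kb, number of intervals and median interval width in bp (log scale) in the 300-kb window, by pairs of title numbers with the 2-DG list left of the control list. Covered bases are close within each pair and in pairs 1 and 2 alike, and run from 3426 and 3999 bases in pair 3 to 123061 and 119569 bases in pair 2.

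In pairs 1 and 2 the covered bases around the gene formed a segment with sharp ends. Intervals of the window further below the gene are described apart and were left out of the segment. Its first base, over all 8 lists, was 77869686 and its last 78027266, a length of 157581 bases that runs from 11473 bases below the gene to 80910 bases upstream of its start. The first covered base lay at 77869703 and 77869686 in the 2-DG lists of pairs 1 and 2, against 77869705 and 77869783 in their control lists. The last lay at 78027218 and 78027254 in the 2-DG lists, against 78027216 and 78027266 in the control lists. In pair 3 the cover ran from 77872874 to 77983510 in the 2-DG list and from 77873015 to 78021761 in the control list. One interval, upstream of the gene, began at the same base, 78004120, in all 4 lists of pairs 1 and 2. To the right of the segment, no list of the 8 had an interval up to the end of the window. Title 18 had 1 there, at 78061376 to 78061486.

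Inside the segment, 31477 bases were in no interval of the 10 lists, and 29501 of them fell in 6 gaps of at least 1000 bases. The longest gaps were 7387 bases at 77951882 to 77959268 and 7093 bases at 78012759 to 78019851, both upstream of the gene. Of the 128080 bases outside these gaps, the 2-DG lists covered 95.03%, 95.8%, 2.59% and 35.6%, against 93.5%, 93.4%, 3.03% and 37.8% in the control lists, each for replicates 1 to 4. The union of the 8 lists in the segment, 126104 bases, equals the union of pairs 1 and 2 alone. Every segment base covered in pair 3, pair 4, title 18 or title 17 was thus also covered in at least 1 list of pairs 1 and 2. All 4 lists of pairs 1 and 2 shared 111670 bases, and all 8 lists shared 551.

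With the gaps left out, gene body and upstream flank were covered to like shares within a list. The gaps were defined by the lack of intervals in these same lists and lie outside the gene body, most of them upstream. Leaving them out therefore raises the upstream share alone, and the likeness depends on that choice. In 2-DG replicates 1 to 4 intervals took 93.9%, 95.2%, 2.42% and 33.2% of the gene body, against 94.0%, 92.5%, 3.52% and 36.0% in control replicates 1 to 4. Upstream of the gene and outside the gaps, the shares were 96.1%, 96.0%, 2.91% and 38.9% in the 2-DG lists, against 92.1%, 94.9%, 2.80% and 40.7% in the control lists. Below the gene, with the gap there kept in, the 2-DG lists covered 86.7%, 87.7%, 1.84% and 30.5%. The control lists covered 87.8%, 81.7%, 0.941% and 30.7% there. Cwc22 had an interval in the gene body in all 8 lists, as did 133 genes, or 0.615% of all. Bases covered in the gene body of Cwc22 overlapped between treatments, whereas they did not overlap, with 2-DG higher, in 5.59% of the 6185 genes with an interval in some list, and with control higher in 0.0323%.

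Overlap between the 2 lists of a pair was high where the cover was. In pair 1 they shared 95.7% of the bases of the 2-DG list and 97.6% of those of the control list, and in pair 2, 95.5% and 98.2%. In pair 4 the shares were 60.9% and 57.6%, and in pair 3, 16.1% and 13.8%. The Jaccard index, shared bases over the union, was 0.935, 0.939, 0.0802 and 0.420 for pairs 1 to 4 in the window, against 0.101, 0.140, 0.109 and 0.191 in the rest of the genome. Over the 6 pairings of the lists of pairs 1 and 2, it was 0.922 to 0.957 in the window and 0.0951 to 0.277 elsewhere. Each of these lists covered 93.4% to 95.8% of the segment outside the gaps, so a high index in the window follows from the cover. Its likeness within and across pairs is therefore no separate result.

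The median summit of the window stood at 9.85, 11.6, 9.57 and 6.95 times background in 2-DG replicates 1 to 4, against 10.9, 11.6, 7.91 and 7.11 times in control replicates 1 to 4. Titles 18 and 17 had medians of 5.32 and 6.23 times. Since only summits above a list's end are listed, medians of lists with few summits cover their upper part alone. In the gene body the medians were 10.3, 11.6, 11.5 and 6.95 times in 2-DG replicates 1 to 4, against 10.3, 11.6, 7.03 and 7.11 times in control replicates 1 to 4. In the upstream flank they were 9.85, 11.6, 9.09 and 6.95 times in the 2-DG lists, against 10.9, 12.1, 8.79 and 7.11 times in the control lists. Gene body and flank were thus close in pairs 1, 2 and 4, and in pair 3, with the fewest summits, they differed in opposite directions. To set the lists on 1 scale, summits of at least 6.70 times background, the highest limit of the lists, were counted, a choice made after the data were seen. The 2-DG lists then held 429, 490, 18 and 97 summits in the window, against 401, 464, 19 and 91 in the control lists, and titles 18 and 17 held 1 and 7. The order of the pairs was the same as for the cover. Pair 3 had the lowest background and the lowest cover of the 4 pairs. Titles 18 and 17 had a background of 1.88 and 2.09, above that of both control lists of pairs 1 and 2. Their cover was the lowest of the 10 lists. Read counts were not analysed, and the part of depth in the cover was not tested.

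**Figure D2:**
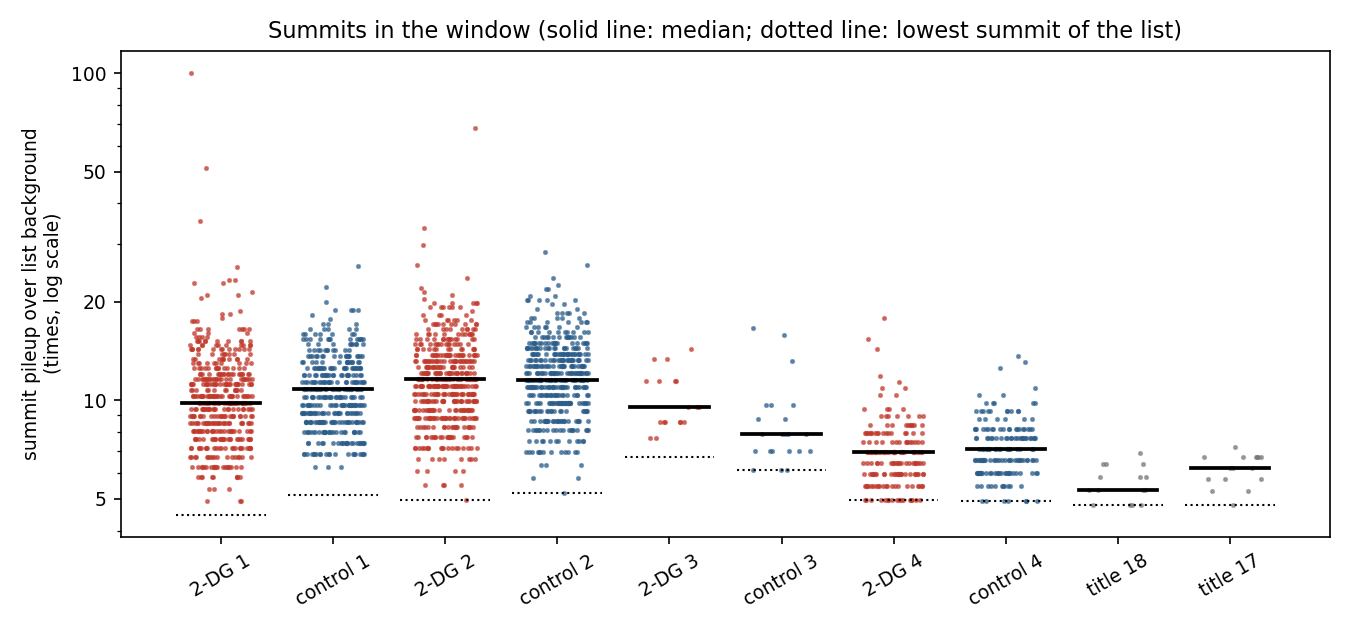
Height of every summit in the window over the background of its list (log scale), with the median as a solid line and the lowest summit anywhere in the list as a dotted line. Medians of pairs 1 and 2 lie at 9.85 to 11.6 times background, those of pair 4 at 6.95 and 7.11 times, and those of titles 18 and 17 at 5.32 and 6.23 times.

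Single sites stood above this level in 2-DG replicates 1 and 2, and the first of them did in all 4 2-DG lists. In 2-DG replicate 3 it had 15 fragments against a median of 10, which lies inside the Poisson interval given below. In 2-DG replicate 4 the other 2 sites were near this level, at 1.07 and 1.14 times the median pileup of the window's summits. In control replicate 1 the 3 sites stood at 1.84, 1.74 and 1.32 times that list's median. Control lists also had summits above their level, at other places. Their highest had 45, 49, 19 and 25 fragments in control replicates 1 to 4, against medians of 19, 20, 9 and 13. The 3 sites were picked after the values were seen, as the 3 highest summits of 2-DG replicate 1, and are described without a test. The first lies at 77951600, 5244 bp upstream of the gene start and between genes. Its pileup was 224, 123, 15 and 36 fragments in 2-DG replicates 1 to 4, with exact 95% Poisson intervals, for counting error only, of 196 to 255, 102 to 147, 8.40 to 24.7 and 25.2 to 49.8. Control replicates 1, 2 and 4 had summits of 35, 25 and 13 fragments within 200 bp, and control replicate 3 had none. Over background, the site stood at 100, 67.9, 14.4 and 17.9 times in the 2-DG lists, against 19.99, 14.5 and 7.11 times in those 3 control lists. By the highest summit within 200 bp the groups overlap, since 19.99 times in control replicate 1 exceeds the values of 2-DG replicates 3 and 4. The highest summit of the window lay at this site, at 77951595 to 77951609, in all 4 2-DG lists and in no control list. In 2-DG replicate 1 this follows from the choice of the site. In 2-DG replicate 3 it had 15 fragments, against 14 at the next summit, so its first place there is within counting error. The control summits lay apart from it, at 77951476, 77951444 and 77951514 in replicates 1, 2 and 4, and ranked 3, 87 and 73. Title 18 had a pileup of 11 at 77951607 and title 17 one of 10 at 77951718.

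The other 2 sites had a summit in both lists of pairs 1, 2 and 4 and in neither list of pair 3. The site at 77975739, 29383 bp upstream, had 115 and 54 fragments in 2-DG replicates 1 and 2, against 33 and 22 in control replicates 1 and 2. In pair 4 it had 15 fragments in the 2-DG list and 12 in the control list. The site at 78023907, 77551 bp upstream, had 79 and 61 fragments in 2-DG replicates 1 and 2, against 25 and 19 in control replicates 1 and 2. In pair 4 the order was the other way, with 16 fragments in the 2-DG list and 18 in the control list. Since the sites were picked by their height in 2-DG replicate 1, the order in pair 1 follows from that choice.

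**Figure D3:**
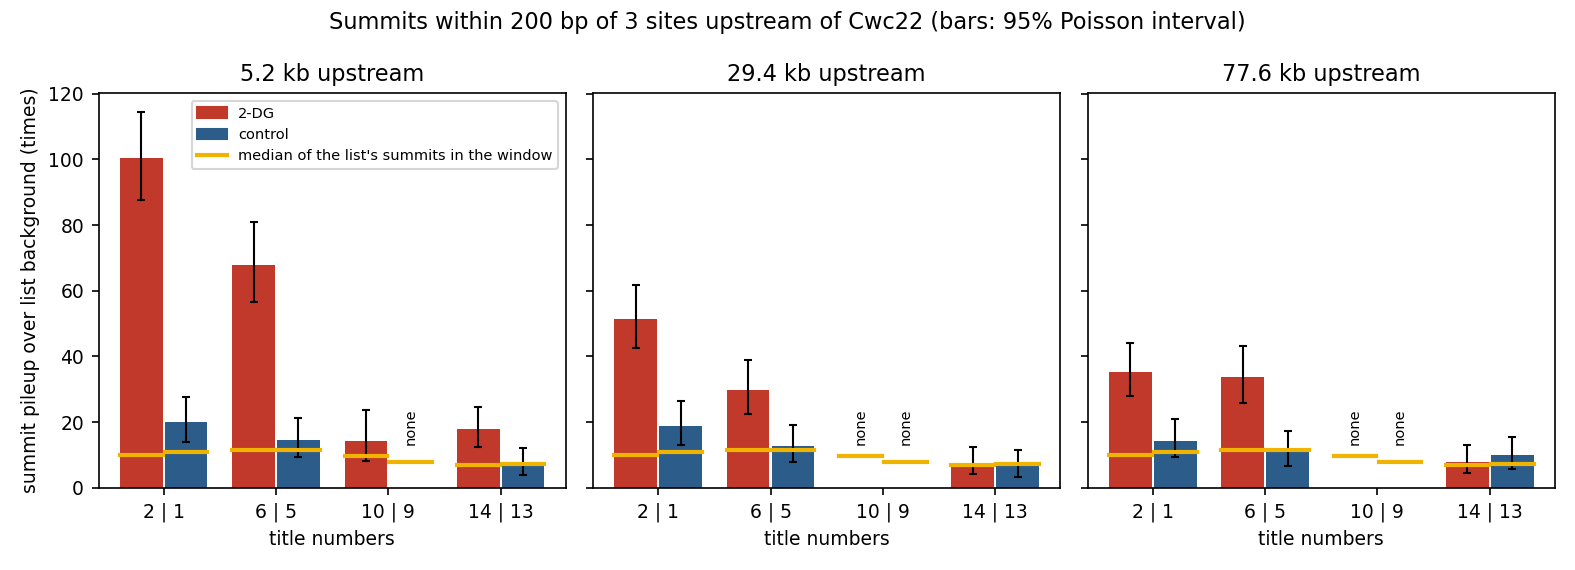
Highest summit within 200 bp of 3 sites upstream of Cwc22, in times list background with 95% Poisson intervals for counting error, by title numbers with the 2-DG list left of its control list and the list's median summit in the window as a yellow line. At the site 5244 bp upstream the 2-DG bars are 100, 67.9, 14.4 and 17.9 times background, and at the 2 other sites those of 2-DG replicates 1 and 2 are 51.5 and 29.8 times, and 35.4 and 33.7 times.

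Outside the segment the 8 lists had intervals at 2 places in the window. Of the window's 14 regions, merged over the 8 lists, 4 were found in all 8, against 1.02% of the 35714 regions of the genome. These 4 were 8328 to 44331 bp wide, whereas the median interval width was 134 to 171 bp in the 8 lists. A short interval anywhere in such a region counted, so the share of the genome is not a like comparison. All 8 lists shared only 551 bases, and the count fell to 0 when a large part of both intervals had to overlap. All 4 regions lay in the segment. Outside it, a region at 77818885 to 77819278 was called in every 2-DG list and in no control list, a pattern that 1.72% of the regions of the genome show. Its pileup was 41, 27, 9 and 15 fragments in 2-DG replicates 1 to 4, and title 18 had 11. The summit in 2-DG replicate 1 lies 1357 bp upstream of Zfp385b, a zinc finger gene on the minus strand whose annotation reaches 77817706, inside the window. Control replicate 3 had a separate interval nearby, at 77819640 to 77819760, with 8 fragments. Inside Zfp385b but outside the window, all 4 2-DG lists and no control list had an interval near 77703717, with 28, 19, 9 and 16 fragments in replicates 1 to 4. This is again the pattern of 1.72% of the genome's regions. At other places in that gene, single intervals were called in 2-DG replicate 3 and in control replicates 1 and 3, and those of pair 3 overlap.

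The noncoding RNA gene 4930440I19Rik, which begins in the window at 78051177, had 424, 326, 105 and 244 covered bases in 2-DG replicates 1 to 4, against 0 in every control list. These bases are at 78160069 to 78160494, beyond the window, with 55, 45, 10 and 31 fragments. Title 18 had an interval there too, at 78160174 to 78160373, with 16 fragments. Of all regions of the genome, 1.72% were called in every 2-DG list and no control list. Of protein-coding genes with an interval in some list, 5.59% did not overlap between treatments with 2-DG higher. The other noncoding RNA gene of the window, Gm52519, had 0 covered bases in all 8 lists. The pseudogene Gm13726, of 864 bases inside the segment, had 864, 864, 0 and 564 bases covered in the 2-DG lists, against 827, 864, 0 and 615 in the control lists, as the segment around it. Of the nearest protein-coding genes beyond the window, Sestd1 had 377 and 344 covered bases in 2-DG replicates 1 and 2 and 0 in the other 6 lists. Gm14461 had 112 in 2-DG replicate 1 alone.

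Set against the genome, the window held a large share of what was called. It took 3.53%, 6.70%, 0.303% and 3.63% of all covered bases in 2-DG replicates 1 to 4, against 13.2%, 13.1%, 0.288% and 3.48% in control replicates 1 to 4. The share in pairs 1 and 2 was lower in the 2-DG lists because their totals were larger, 3459062 and 1836012 bases, against 910071 and 910889 in the control lists. Among 7859 tiles of 300 kb with an interval in some list, the window ranked first in both lists of pairs 1, 2 and 4. In pair 3 it ranked 23 in the 2-DG list and 20 in the control list. The next tile held 38295 and 35141 bases in 2-DG replicates 1 and 2, against 32144 and 35583 in control replicates 1 and 2. With tiles of 100 kb or 50 kb, the window held the first tile in pairs 1 and 2 and no longer in pair 4.

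**Figure D4:**
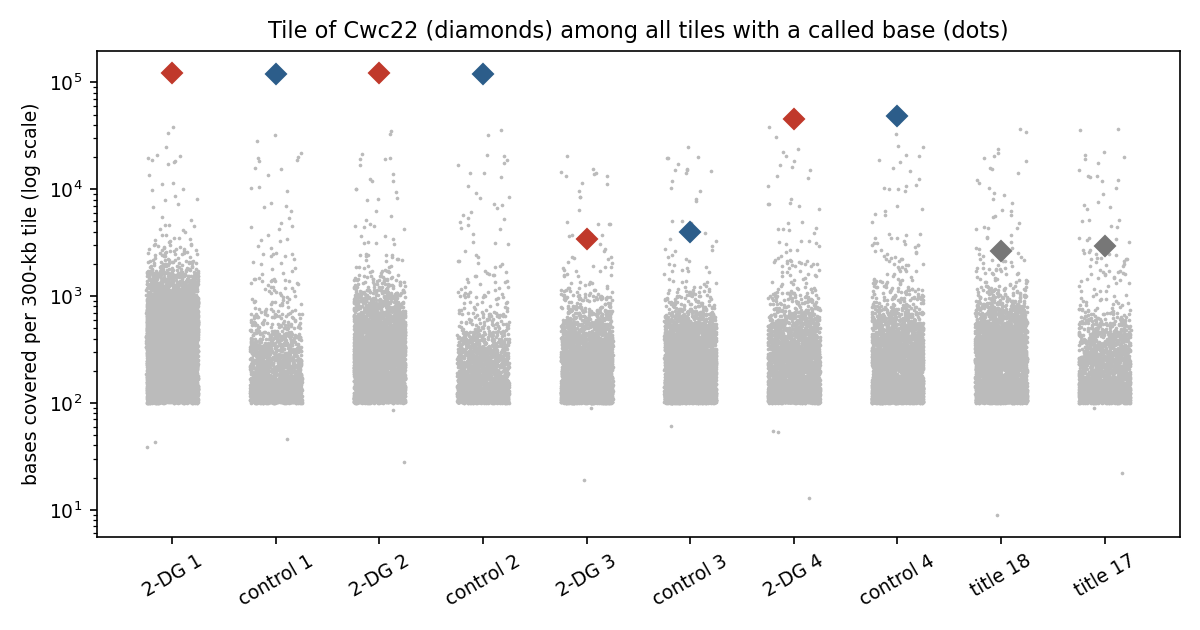
Bases covered per 300-kb tile (log scale), with the tile of Cwc22 as a diamond and every other tile with a called base as a grey dot, for each list. The diamonds of pairs 1 and 2, at 119569 to 123061 bases, stand clear of all other tiles, and those of pair 3, at 3426 and 3999 bases, lie among them.

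Wide intervals were common in the window in pairs 1 and 2 and their number elsewhere was low. Intervals of at least 5000 bp numbered 11 and 10 in the window in 2-DG replicates 1 and 2, and 8 and 7 in control replicates 1 and 2, against 0 in either list of pairs 3 and 4. Elsewhere in the genome each of the 8 lists had 1 to 3 of that width. Cwc22 averaged 36735.5 covered bases over the 8 lists, the most of any gene, and its highest list had 39.3 times the bases of its lowest. Gm38510 and C130026I21Rik, which overlap on chromosome 1, followed with 22147 and 15879 bases and ratios of 3.58 and 2.88. Sp140 and Sp110, nuclear body proteins of a gene cluster on chromosome 1, had 12911 and 10869 bases and ratios of 1.69 and 1.74. Cd244a, a receptor of natural killer cells, came next with 9797 bases and a ratio of 2.57. The gene after these by average cover, 1600014C10Rik, had 9779 bases and 0 in 1 list. A high ratio was not particular to Cwc22, since Nxpe5, with an average of 2258 bases, had a ratio of 44.4. Sums of called bases move with how much of a list was called, and these ratios are descriptions.

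The genes most like Cwc22 were sought among 243 other genes with an interval in at least 4 lists and at least 1000 covered bases in 1 list. Likeness was Pearson's r of covered bases over the 8 lists, whose covered bases also move with how much of each list was called, and is a description. The highest was the nonagouti gene a, a coat colour gene on chromosome 2 (r = 0.951). It had 1381, 1212, 397 and 421 bases in 2-DG replicates 1 to 4, against 1390, 1669, 255 and 518 in control replicates 1 to 4. Titles 18 and 17, which r did not use, held 1896 and 2488 bases there, more than any of the 8 lists and unlike Cwc22. Nxpe5 followed (r = 0.893), with 5063, 3055, 114 and 1593 bases in the 2-DG lists and 2871, 3311, 948 and 1110 in the control lists. 1600014C10Rik on chromosome 7 (r = 0.808) was at 13342, 13154, 0 and 12743 bases in the 2-DG lists and 13151, 13064, 140 and 12635 in the control lists. There too pair 3 was low in both treatments, while pair 4 was as high as pairs 1 and 2. 4931408C20Rik (r = 0.792) and Sp140 (r = 0.783) came next and varied by a ratio of only 1.21 and 1.69. The median r over the 243 genes was 0.29, and 1 gene reached 0.9.

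The list of genes of the splicing process in which CWC22 works held 42 genes besides Cwc22, from the exon junction complex, its partners in RNA decay and export, and the spliceosome. Members with an interval in the gene body numbered 4, 4, 4 and 4 in 2-DG replicates 1 to 4, against 3, 1, 2 and 4 in control replicates 1 to 4. These are 9.52% in each 2-DG list and 2.38% to 9.52% in the control lists. Over all genes the shares were 17.1%, 10.3%, 8.6% and 7.68% in the 2-DG lists and 4.6%, 4.58%, 10% and 8.03% in the control lists. In titles 18 and 17, 8 and 2 members had an interval, that is 19.0% and 4.76%, against 9.93% and 5.11% of all genes. The members' shares thus lay below those of all genes in some lists and above them in others. Of these genes, 3 were found in at least 3 lists of 1 treatment, or 7.14%, against 7.03% of all genes. Bud31, a spliceosome subunit, had 225, 185, 96 and 164 bases in the 2-DG lists, against 163, 0, 0 and 0 in the control lists. Dhx8, a helicase that releases spliced RNA, had 0, 135, 171 and 154 bases in the 2-DG lists, against 0, 0, 0 and 107 in the control lists. Srrm1, a splicing coactivator, had 119 covered bases in all lists but those of pair 3, where it had 0. None of the 42 had cover on the scale of Cwc22, since all members together came to 578 to 1164 bases in a 2-DG list and 119 to 563 bases in a control list.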

How the data were processed

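Of 18 samples, 10 immunoprecipitations had a peak list. The lists were made with tools that include BWA, Picard, MACS2 and DiffBind on mm10, per the submitters' processing notes, which give no versions. Each was called on 1 sample. Per interval and summit, the deposited lists give a fold over background (a ratio, column 7), the p-value and the q-value as -log10, and a score derived from the q-value. These are the authors' values for single peaks. Lists repeat an interval for each summit, and distinct intervals were counted here, each at its highest summit.

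In each list, every fold was a whole multiple of 1 step (tolerance 0.05 step), which gives 1 background for the whole genome and whole-number pileups. A Poisson test with these values returned the deposited -log10 p of all summits with values under 250 within 2.2e-05. A single background does not adjust for a region with more DNA in the sample. No test was run on the window, and alternatives are given below as values.

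In all, 4 samples with conflicting labels, 2 of them with lists, entered no group. Gene positions came from RefSeq (GRCm38.p6). The named genes are Cwc22, the genes that overlap the window, the nearest protein-coding gene on either side, the 5 most alike, the 5 with most cover, and splicing genes found in at least 3 lists of 1 treatment. Members and gene lists were chosen with earlier results of these data known. The code was tested on simulated data. Python 3.11.15, numpy 2.4.6, pandas 2.3.3 and scipy 1.17.1 were used.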

Additional observations from a re-analysis of the deposited data

Results flagged for a closer look

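In 24 sets of values, each of the 4 lists of 1 treatment, 3 had a value set well apart, where chance gives about 1 in 20. 2-DG replicate 4 had 138 intervals in the window, against 18 to 28 in the other 2-DG lists. Control replicate 4, of the same pair, likewise had 123, against 20 to 39 in the other control lists. Control replicate 3 had the lowest background of the control lists, 1.14 fragments. 2-DG replicate 1 was the longest 2-DG list, with 15240 intervals.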

How the results depend on the processing

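The difference in bases covered, 649 between 2-DG and control lists, stayed between -202.5 (gene body alone) and 1275 (-log10 q of at least 2) under all alternatives that left out no list. Leaving out any 1 list unbalances the pairs and moved it to between -22329.5 and 24034.8. Each of these values is smaller in size than the SD between lists, 58053 bases, which holds the gaps between pairs. Each is larger than the SD of the differences within pairs, 2770 bases. The difference in number of intervals, 0.25, ranged from -28.1 to 23.7 without 1 list, that in mean width, 372 bp, from -320 to 1100 bp, and that in the percentile of the median fold within a list, 1.39, from -6.30 to 8.01. With consecutive title numbers as a replicate block, a choice made after the data were seen, the mean difference in bases within pairs is the same 649.

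With equal numbers of intervals per list (3461), the percentile difference was -21.8. The 4 regions of the window found in all 8 lists became 0 when the overlap had to reach 50% of both intervals. The window was the first tile in 6 lists, and in 4 with smaller tiles. Of the 5 genes most like Cwc22, 3 remained with Spearman's correlation or with 5000 bp on either side, and 3 to 5 without 1 list. The count of genes whose treatments did not overlap in covered bases, 348, was 362 to 560 without 1 list, highest without 2-DG replicate 3. With the conflicting lists added it was 278 by title and 5 by description. Lists hold no pileup below their limit, so how high the segment stood in pair 3 and in titles 18 and 17 is bounded but not measured.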
